A study of Mus musculus with 8 samples.

Results

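The Nrf2 antioxidant response genes described here are 10 genes fixed by name: Nfe2l2, Keap1, Hmox1, Nqo1, Gclc, Gclm, Gsr, Slc7a11, Txnrd1 and Srxn1. Each was found by its symbol in the platform annotation, and each had 1 row on the array, so 10 of 19505 named genes and 10 of 22206 rows are concerned. Nfe2l2 encodes Nrf2, a transcription factor that switches on genes of glutathione synthesis, thiol reduction, quinone reduction and heme breakdown when a cell meets electrophiles or oxidants. Keap1 encodes the adaptor that holds Nrf2 in the cytoplasm and hands it to the proteasome. Electrophiles modify cysteines of Keap1 and let newly made Nrf2 reach the nucleus, where it binds antioxidant response elements together with small Maf proteins. This control acts on the Nrf2 protein, so that the Nfe2l2 transcript need not change when the targets do. In brain, astrocytes are known for a strong Nrf2 response and neurons for a weak one. Diterpenes of rosemary such as carnosic acid are known activators of the pathway.

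The RNA, from limbic system by most labels and from hippocampus by the description field, came from male mice of the outbred ICR strain bought at 8 weeks of age and housed singly, and was hybridised to Clariom S arrays. The groups, each with 2 arrays, were defined by a drink of water, a low dose or a high dose of rosemary extract (RE), all 3 with the tail suspension test (TST), and by water without TST. The test hangs a mouse by its tail and scores how long it stays immobile, and also acts as a short stressor. RE was given by mouth in drinking water for 7 days, at 10 mg/kg for the low dose. For the high dose the titles and the treatment protocol give 100 mg/kg, while the source field gives 50 mg/kg. The water groups received drinking water alone, and no group received RE without TST. The agent field calls the stressed water mice the negative and the unstressed ones the positive control. The 7 mice assigned to a group may have been pooled or sampled singly, which the labels leave unsaid, so the p-values cover the spread between samples alone, and that spread may be technical.

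The promoters of the members were searched for the binding sequence of Nrf2. The members were listed as genes of this pathway, so a match adds no independent support. RefSeq's promoter table for GRCm38.p6 held 7 of the 10 genes, without Hmox1, Gclc and Gsr. The 250 bases before each listed start were searched on both strands for the core of the antioxidant response element, written as TGACNNNGC or TGAGNNNGC, and for the AP-1 site TGACTCA, whose reverse complement lies inside some forms of TGAGNNNGC. Of the 7 genes, 5 held 1 of the cores before at least 1 listed start, namely Nfe2l2, Gclm, Slc7a11, Txnrd1 and Srxn1, while Keap1 and Nqo1 held none in this window. By window, 5 of the 9 windows of these genes held a core. Among all 32851 windows of the table, 23.0% held 1 of the cores, 10.2% TGACNNNGC, 14.4% TGAGNNNGC and 4.46% TGACTCA. A match describes the letters only. The windows below belong to the gene for Nrf2 itself, to Gclm and Srxn1, 2 widely used Nrf2 targets whose values turned on single arrays, and to Txnrd1, whose high-dose arrays lay apart from all others. They are written 5′ to 3′ on the strand of the gene, with the matches in capitals, and positions count from the start, with negative numbers before it.

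Nfe2l2, chr2:75704664-75704913, minus strand: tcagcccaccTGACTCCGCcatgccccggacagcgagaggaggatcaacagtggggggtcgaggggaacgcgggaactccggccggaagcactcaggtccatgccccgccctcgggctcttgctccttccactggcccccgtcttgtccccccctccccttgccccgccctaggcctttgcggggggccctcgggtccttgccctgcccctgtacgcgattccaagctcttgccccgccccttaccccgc
Gclm, chr3:122245307-122245486, plus strand: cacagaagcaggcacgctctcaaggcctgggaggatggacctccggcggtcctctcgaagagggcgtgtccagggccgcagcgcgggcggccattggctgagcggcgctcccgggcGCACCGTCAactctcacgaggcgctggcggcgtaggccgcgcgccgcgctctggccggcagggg
Srxn1, chr2:152105274-152105523, plus strand: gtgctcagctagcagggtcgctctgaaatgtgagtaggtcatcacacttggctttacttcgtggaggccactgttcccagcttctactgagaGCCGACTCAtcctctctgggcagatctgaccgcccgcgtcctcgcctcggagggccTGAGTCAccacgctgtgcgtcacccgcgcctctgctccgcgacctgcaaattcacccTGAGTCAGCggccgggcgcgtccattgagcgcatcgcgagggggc
Txnrd1, chr10:82858956-82859205, plus strand: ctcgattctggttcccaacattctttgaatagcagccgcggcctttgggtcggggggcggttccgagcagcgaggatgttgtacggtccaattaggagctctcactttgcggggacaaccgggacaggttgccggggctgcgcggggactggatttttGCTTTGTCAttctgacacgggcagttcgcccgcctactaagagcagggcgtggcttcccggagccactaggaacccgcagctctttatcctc

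The match in the Nfe2l2 window was TGACTCCGC on the strand of the gene, with its first base at -240. Gclm held TGACGGTGC on the opposite strand at -134 from the start that the table lists; its window is printed for 180 bases, up to the outermost start of the gene. Srxn1 held 2 cores and 2 AP-1 sites: TGAGTCAGC at -45 holds an AP-1 site inside it, TGAGTCGGC lay on the opposite strand at -158, and the other AP-1 site lay at -102. Txnrd1 has 3 listed starts, and TGACAAAGC lay on the opposite strand at -92 from 1 of them, the one shown.

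The arrays differed in what tissue they held. Of 12 listed markers of cerebellar granule and Purkinje cells 10 were measured, and relative to their mean over the 8 arrays they averaged 4.91 on water with TST replicate 2, 2.88 on water without TST replicate 1 and -1.66 to -0.547 on the other 6 arrays. Gabra6, which cerebellar granule cells express as a GABA-A receptor subunit, was at 16.37 on the first of these arrays and at 14.31 on the second, and between 4.69 and 8.42 on the others. Forebrain excitatory neuron markers, which a limbic sample should hold (9 of 10 measured), averaged -2.19 on water with TST replicate 2 and between -0.282 and 0.691 elsewhere. Low-dose RE replicate 2 had the highest mean of the choroid plexus markers, 0.881 against -1.30 to 0.305 elsewhere (9 of 9 measured). It also had the lowest mean of the astrocyte markers, -0.469 against -0.106 to 0.604 elsewhere (10 of 10 measured). The astrocyte markers were uneven there, with Slc4a4 at 9.65, against 11.63 to 14.06 elsewhere. Slc1a2 was at 17.14 on that array, within the 15.89 to 17.35 of the others. The part of these cell types in the results below was not tested; a value without an array leaves out all that is particular to that array. Values are log2 RMA values, with array medians between 7.45 and 7.51; 1359 of them exceed 16, the limit of a 16-bit scanner, so a log2 difference may be stretched. In bulk RNA, fewer cells of a type and less RNA per cell cannot be told apart.

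None of the 10 genes passed the test in any of the 4 comparisons, and the direction of the 10 was mixed. Limma was fitted to all 22206 rows, and a call at the study's threshold needs a fold over 1.2 with an unadjusted p under 0.05. With TST in water-treated mice, 7 members were higher and 3 lower, with a median log2 difference of 0.10, and 0 were past the threshold that 2.55% of all rows passed. With low-dose RE against water, under TST, 4 were higher and 6 lower (median -0.055), and 0 were past the threshold, against 3.54% of rows. With high-dose RE against water, 5 were higher and 5 lower (median -0.05), with 0 past the threshold, against 3.17% of rows. With the high dose against the low dose, 7 were higher and 3 lower (median 0.11), with 0 past the threshold, against 1.91% of rows. The medians over all rows in the same order were 0.005, 0.015, 0.01 and -0.005. No member had an unadjusted limma p under 0.05, and the lowest adjusted p of a member was 0.997, 0.946, 0.973 and 1.0 in these comparisons. No row at all passed a limma adjusted p of 0.05 (0.0% of rows in each comparison), while 567, 787, 705 and 425 rows had an unadjusted p under 0.05 with the fold over 1.2. In the F-test for any difference among the 4 groups 0 members had an unadjusted p under 0.05, against 1.82% of rows. The median standard error of a log2 difference over all rows was 0.292. A p that misses the threshold does not show that a gene did not change, and the 95% confidence intervals below give the sizes that these 2 arrays per group leave possible.

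**Figure D1:**
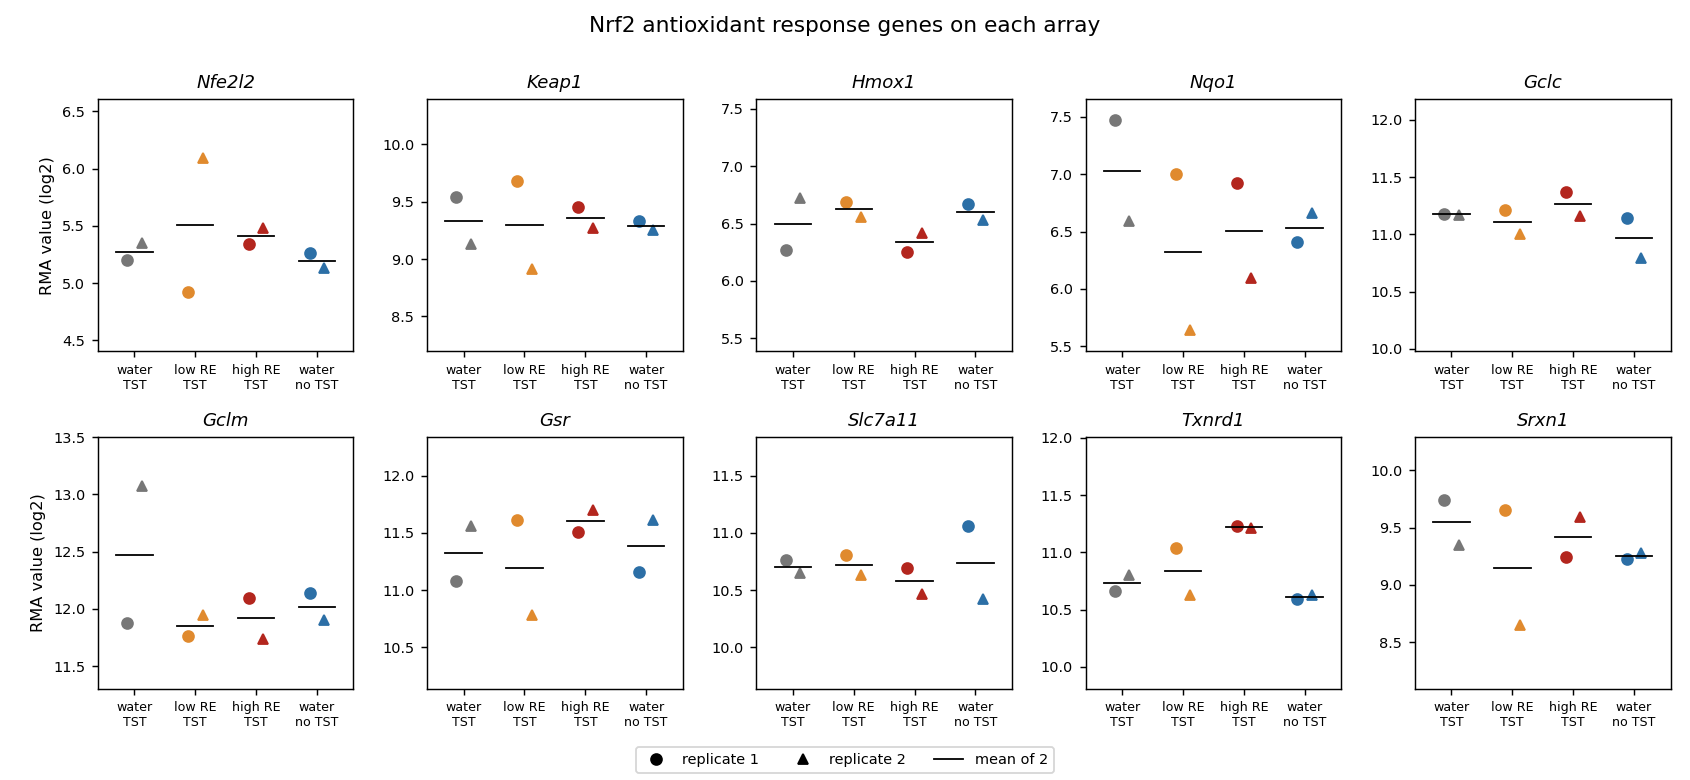
Log2 RMA value of each of the 10 genes on each array, by group; circles are replicate 1, triangles replicate 2 and lines the mean of 2. The replicates of low-dose RE lie far apart for Nfe2l2, Nqo1, Srxn1, Gsr and Keap1, and both high-dose arrays of Txnrd1, at 11.23 and 11.21, lie above the other 6.

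Of the regulators, Nfe2l2 was spread most by the low-dose pair. Under TST, Nfe2l2 was at 5.20 and 5.35 with water, at 4.92 and 6.09 with low-dose RE and at 5.34 and 5.48 with high-dose RE, against 5.26 and 5.13 in water without TST. The low-dose arrays were the lowest and the highest of the 8, and the other 6 lay within 5.13 and 5.48. The log2 difference was 0.23 (95% interval -0.59 to 1.05) for low-dose RE against water with TST and 0.135 (-0.69 to 0.96) for the high dose. Nfe2l2 is the member whose row belongs to the dimmest 25% of the array, and no detection call comes with the values. In the fit without low-dose RE replicate 1 the difference of the low dose was 0.815, and without replicate 2 it was -0.355.

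Keap1 gave the opposite order within the low-dose pair. It was at 9.54 and 9.13 with water, at 9.68 and 8.91 with low-dose RE and at 9.45 and 9.27 with high-dose RE, all with TST, against 9.33 and 9.25 in water without TST. All groups overlapped, and the 4 group means lay within 9.29 and 9.36. The log2 differences were 0.045 (-0.65 to 0.74) for TST, -0.04 (-0.73 to 0.65) for the low dose and 0.025 (-0.67 to 0.72) for the high dose against water.

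Of the 10 members, Txnrd1 had the clearest separation between groups. Txnrd1 encodes cytosolic thioredoxin reductase, a selenoprotein that uses NADPH to reduce thioredoxin. Under TST, Txnrd1 was at 10.66 and 10.80 with water, at 11.04 and 10.63 with low-dose RE and at 11.23 and 11.21 with high-dose RE, against 10.59 and 10.63 in water without TST. Both high-dose arrays lay above all 6 other arrays, which 1 of the 10 members did in either direction, against 4.92% of all rows. The group means kept the order of the doses, at 10.73, 10.835 and 11.22 for water, the low and the high dose with TST, but water and the low dose overlapped. High-dose RE minus water, both with TST, gave a log2 difference of 0.49 (SE 0.234, 95% interval -0.05 to 1.03, limma unadjusted p = 0.0687, adjusted p = 0.973). Against the low dose, the high dose was 0.385 higher (-0.15 to 0.92, limma adjusted p = 1.0), and the low dose differed from water with TST by 0.105 (-0.43 to 0.64). The methods' one-way analysis of variance on the 4 arrays compared put the high-dose difference past the study's threshold, at unadjusted p = 0.0202, and limma after quantile normalization did so at unadjusted p = 0.039. The limma fits without either low-dose array, where only the estimate of the spread changes, gave unadjusted p = 0.0499. Under the other alternative settings the high-dose difference was not past the study's threshold. Over the fits that left out 1 array it lay between 0.42 and 0.56. Without the 2 arrays highest in cerebellar markers it was 0.56.

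Srxn1 encodes sulfiredoxin, which repairs over-oxidised peroxiredoxins. Its promoter held the most matches of those searched, with 2 cores and 2 AP-1 sites. It was at 9.74 and 9.35 with water, at 9.65 and 8.65 with low-dose RE and at 9.24 and 9.59 with high-dose RE, all with TST, against 9.23 and 9.28 in water without TST. Low-dose RE replicate 2 was the lowest array, and both water arrays with TST lay above both without it. This order was shared by 3 members in that comparison (Gclc, Txnrd1 and Srxn1), and groups that do not overlap made up 27.5% of all rows. The log2 differences were 0.29 (-0.51 to 1.09) for TST, -0.395 (-1.19 to 0.40) for the low dose and -0.13 (-0.93 to 0.67) for the high dose. In the fit without low-dose RE replicate 1, the difference of Srxn1 was -0.895 for the low dose against water.

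**Figure D2:**
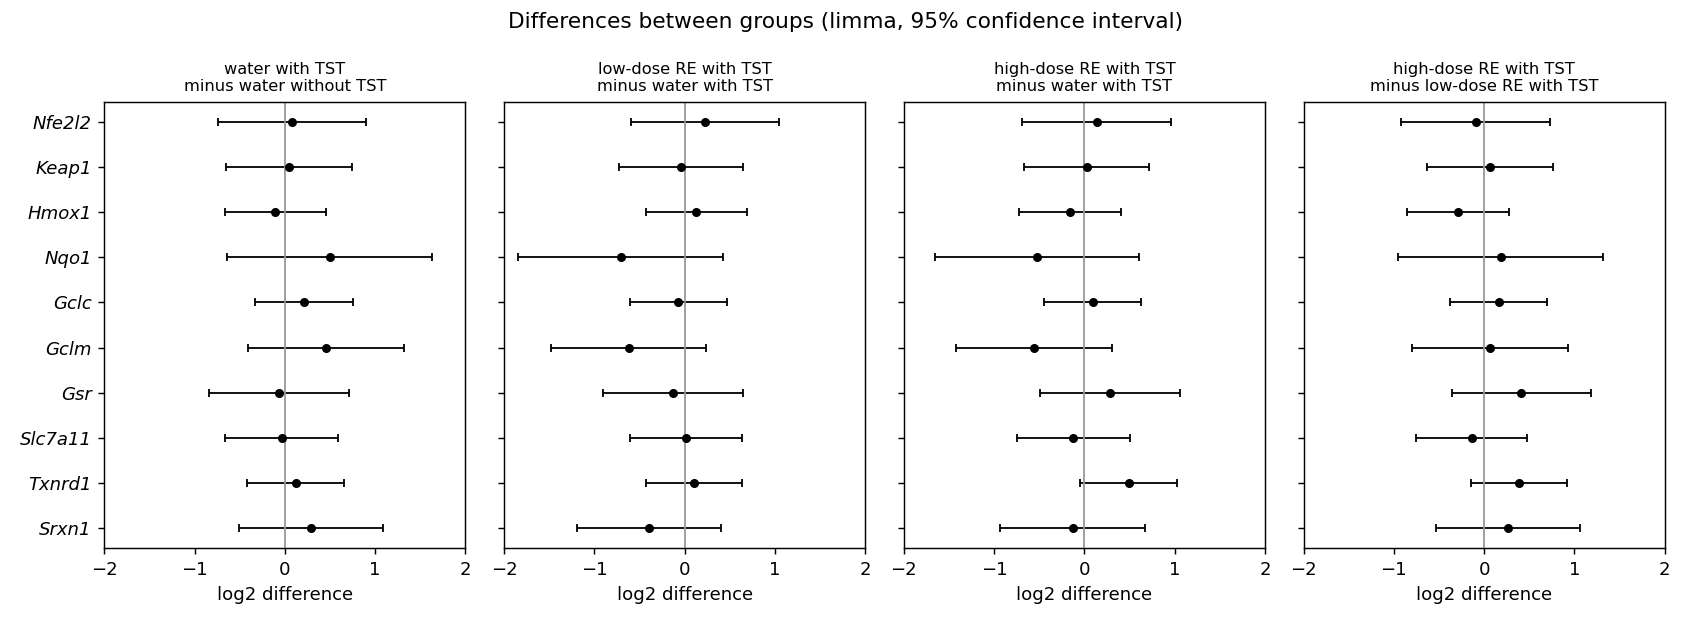
Log2 differences of the 10 genes in the 4 comparisons (points) with 95% confidence intervals of the limma fit (bars); the grey line marks no difference. All 40 intervals include 0, and the one that comes nearest to leaving it out, Txnrd1 with high-dose RE against water with TST, runs from -0.05 to 1.03.

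Glutathione synthesis is represented by the 2 subunits of glutamate-cysteine ligase and by the cystine importer. Reduction of oxidised glutathione is represented by glutathione reductase. Gclc, the catalytic subunit, was at 11.18 and 11.17 with water, at 11.21 and 11.00 with low-dose RE and at 11.37 and 11.16 with high-dose RE, all with TST, against 11.14 and 10.79 in water without TST. The RE groups overlapped with water with TST. The log2 difference was 0.21 (-0.33 to 0.75) for TST, -0.07 (-0.61 to 0.47) for the low dose and 0.09 (-0.45 to 0.63) for the high dose.

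Gclm, the modifier subunit, had its high value on the array highest in cerebellar markers. Under TST it was at 11.88 and 13.07 with water, at 11.76 and 11.95 with low-dose RE and at 12.10 and 11.74 with high-dose RE, against 12.14 and 11.90 in water without TST. The 13.07 belongs to water with TST replicate 2. The next highest, 12.14, was on water without TST replicate 1, the other array high in those markers. It lay close to the 12.10 of high-dose RE replicate 1, where the cerebellar markers averaged -1.01. The part of cerebellar cells in the Gclm values was not tested. Gclm was -0.62 (-1.48 to 0.24) with the low dose and -0.555 (-1.42 to 0.31) with the high dose against water with TST, and 0.455 (-0.41 to 1.32) for TST. Without water with TST replicate 2 these differences were -0.025, 0.04 and -0.14. Without replicate 1 of that group, which leaves the array at 13.07 alone in it, they were -1.215, -1.15 and 1.05. Gclc, the partner subunit, differed by 0.01 between the same pair of arrays where Gclm differed by 1.19.

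Slc7a11 encodes the light chain of the cystine/glutamate exchanger that feeds glutathione synthesis. It was at 10.76 and 10.65 with water, at 10.81 and 10.63 with low-dose RE and at 10.69 and 10.47 with high-dose RE, all with TST, against 11.06 and 10.42 in water without TST. The unstressed water arrays were the highest and the lowest of the 8, and enclosed all others. The mean of 8 measured meningeal fibroblast markers was also highest on water without TST replicate 1, at 0.541, against -0.356 to 0.256 on the other arrays. That array was high in the cerebellar markers too, at 2.88. Low-dose RE replicate 1, with the lowest meningeal mean of -0.356, had Slc7a11 at 10.81. The part of either cell type in the Slc7a11 values was not tested. The log2 differences lay between -0.14 (high against low dose, -0.76 to 0.48) and 0.015 (low dose against water, -0.61 to 0.64).

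Gsr encodes glutathione reductase, which returns oxidised glutathione to its reduced form. It was at 11.08 and 11.56 with water, at 11.61 and 10.78 with low-dose RE and at 11.51 and 11.70 with high-dose RE, all with TST, against 11.16 and 11.61 in water without TST. The high-dose mean of 11.605 was the highest of the 4, and its arrays overlapped with those of every other group. The log2 difference was 0.285 (-0.49 to 1.06) for the high dose against water and 0.41 (-0.36 to 1.18) against the low dose. The second value became -0.005 without low-dose RE replicate 2 and 0.825 without low-dose RE replicate 1.

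Hmox1 and Nqo1, the enzymes most often read as a sign of Nrf2 activity, overlapped between each RE group and water with TST. Hmox1, the inducible heme oxygenase, was at 6.27 and 6.72 with water, at 6.69 and 6.56 with low-dose RE and at 6.25 and 6.42 with high-dose RE, all with TST, against 6.67 and 6.53 in water without TST. Both high-dose arrays lay below both low-dose arrays, by a log2 difference of -0.29 (-0.85 to 0.27, limma adjusted p = 1.0). Hmox1 and Txnrd1 were the 2 members without overlap between the doses, and 26.6% of all rows had none. Against water with TST the difference of Hmox1 was 0.13 (-0.43 to 0.69) for the low dose and -0.16 (-0.72 to 0.40) for the high dose.

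Nqo1, a quinone reductase, had the widest spread of the members, 1.83 over the 8 arrays. It was at 7.47 and 6.59 with water, at 7.0 and 5.64 with low-dose RE and at 6.92 and 6.09 with high-dose RE, all with TST, against 6.41 and 6.66 in water without TST. Replicate 1 was higher than replicate 2 in every TST group, by 0.88, 1.36 and 0.83. The log2 difference was -0.71 (-1.85 to 0.43) for the low dose and -0.525 (-1.66 to 0.61) for the high dose against water with TST, both toward lower values, and 0.495 (-0.64 to 1.63) for TST. In the fit without low-dose RE replicate 1 the low-dose value was -1.39. Both RE comparisons use the same water arrays, so their signs are not independent. Between low-dose RE and water with TST 0 of the 10 members were free of overlap, and between high-dose RE and water with TST 1, Txnrd1, against 25.0% and 30.5% of all rows.

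Low-dose RE replicate 2 was the array most often lowest among the members. It was the lowest of the 8 arrays in 4 members, Keap1, Nqo1, Gsr and Srxn1, and the highest in Nfe2l2, where 15.3% of all rows had their lowest and 18.3% their highest value on it. Relative to their 8-array means the 10 members averaged -0.238 there and between -0.103 and 0.117 on the other arrays. The low-dose replicates differed by more than 0.5 log2 units in 5 of the 10 members, against 31.6% of all rows, and replicate 1 was higher in 8 of the 10, against 50.1% of all rows. Their median difference was 0.59 for the members and 0.33 for all rows. In the high-dose, water with TST and water without TST pairs 1, 2 and 1 members differed by more than 0.5, against 15.9%, 37.5% and 19.5% of all rows.

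**Figure D3:**
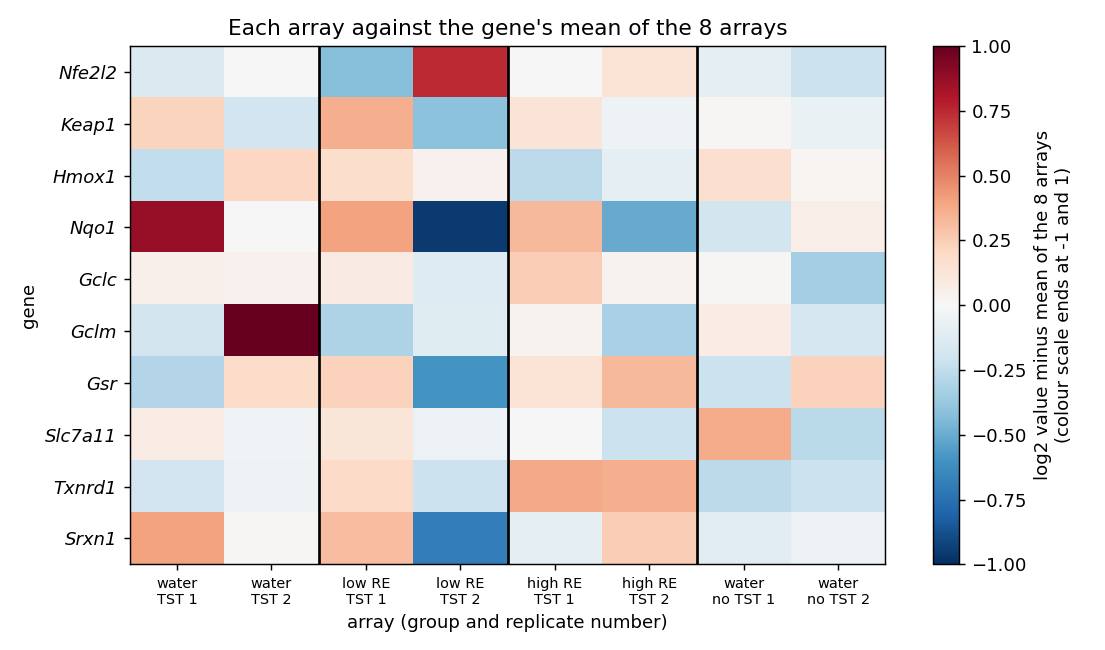
Log2 value of each gene on each array minus the gene's mean over the 8 arrays (colour, scale from -1 to 1), with arrays in columns by group and replicate number. Low-dose RE replicate 2 shows Nfe2l2 at 0.744 above with Nqo1 at -0.958, Srxn1 at -0.691 and Gsr at -0.596, and Gclm stands out at 1.002 on water with TST replicate 2.

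Other genes of the pathway were taken from 7 lists with 64 genes, of which 58 were measured. Between TST and no TST in water-treated mice, 4 of the 58 rose and 0 fell at the study's threshold, which is 6.9% against 2.55% of all rows. Low-dose RE against water with TST gave 0 that rose and 4 that fell (6.9%, against 3.54%), high-dose RE against water 0 that rose and 1 that fell (1.72%, against 3.17%), and the high against the low dose 1 that rose and 0 that fell (1.72%, against 1.91%). The medians over the 58 were 0.015, -0.0075, 0.00 and 0.02. None passed the limma test adjusted over all rows, with lowest adjusted p of 0.997, 0.946, 0.973 and 1.0. Of the 13 measured glutathione enzymes 3 rose with TST, 3 fell with the low dose and 1 with the high dose, and 1 rose with the high against the low dose. Of 13 genes of detoxification and export 1 rose with TST and 1 fell with the low dose. In the lists of Nrf2 partners and regulators (10 measured), thioredoxin and peroxiredoxin genes (6), heme and iron genes (8), NADPH-supplying enzymes (4) and superoxide dismutases with catalase (4), 0 passed in any comparison. With the high dose against water, all 6 thioredoxin and peroxiredoxin genes were lower (median -0.105), the opposite direction to Txnrd1. The 4 superoxide dismutases with catalase were all higher (median 0.18). The 10 calls, over 6 genes, were fewer in some other fits: 2 were kept and 8 lost without the 2 arrays highest in cerebellar markers, which leaves 1 array in each water group, and 5 were lost when only the groups compared were fitted. The 2 that were kept in the first of these fits were the falls of Gpx2 with the high dose (-0.905) and of Mgst1 with the low dose (-0.985), and all 10 kept their direction in both fits.

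Gpx2, a glutathione peroxidase, was past the study's threshold in 3 of the 4 comparisons. Under TST, Gpx2 was at 6.84 and 7.08 with water, at 6.21 and 6.25 with low-dose RE and at 5.81 and 6.06 with high-dose RE, against 6.14 and 6.37 in water without TST. Both arrays of water with TST lay above all 6 others. The pathway genes described singly were named for passing the threshold, so such an order adds no further support. Its share over all rows was not counted. The log2 difference was 0.705 (SE 0.232) for TST, -0.73 (SE 0.232) for the low dose and -1.025 (SE 0.232, limma adjusted p = 0.973) for the high dose against water. The 3 values share the water with TST arrays. Gpx2 lay below the array medians of 7.45 to 7.51 on all 8 arrays, and no detection call comes with the values. The high-dose fall was past the study's threshold under all 15 alternative settings. The rise with TST was not past it by the methods' analysis of variance, without water without TST replicate 1, without water with TST replicate 2, or without both of these, the arrays highest in cerebellar markers (0.47). The low-dose fall missed it when water with TST replicate 2 was left out, alone or with the other of these arrays (-0.61 with both left out).

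Gstm1, a mu-class glutathione transferase, also had both arrays of water with TST above all 6 others. It was at 14.87 and 14.91 with water, at 14.35 and 14.19 with low-dose RE and at 14.20 and 14.55 with high-dose RE, all with TST, against 14.35 and 14.27 in water without TST. It rose with TST by 0.58 (SE 0.230) and fell with the low dose by 0.62 (SE 0.230), and the high dose differed from water by -0.515 without passing. The TST call was lost with any 1 water array left out, and the low-dose call without either water with TST array or low-dose RE replicate 2. Both were also lost when only the groups compared were fitted and without the 2 arrays highest in cerebellar markers (0.60 and -0.60). Gsta3, an alpha-class glutathione transferase, was at 6.89 and 7.12 in water with TST, against 5.99 and 6.36 in water without TST, a rise of 0.83 (SE 0.319), and at 6.07 and 6.90 with the low and 6.46 and 6.16 with the high dose. The rise was not called without water without TST replicate 1 or water with TST replicate 2, without both (0.53), or by the methods' analysis of variance. Glutathione transferases are families of similar genes, and the probe sequences that would show how far a row is shared were not used here.

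Mgst1, a microsomal glutathione transferase, was lowest with the low dose. Low-dose RE arrays were at 8.83 and 7.96, against 9.38 and 9.64 in water with TST. The high-dose arrays were at 9.16 and 9.09, and the arrays of water without TST at 9.24 and 9.51. The low-dose difference was -1.115 (SE 0.313), past the threshold in every fit that left out 1 array (-1.55 to -0.68) but not by the methods' analysis of variance. It was 0.73 (SE 0.313) higher with the high than with the low dose, which became 0.295 without low-dose RE replicate 2 and was lost also without either high-dose array or either array of water without TST, by the methods' analysis of variance, when only the groups compared were fitted and without the 2 arrays highest in cerebellar markers. It held in 6 of 15 alternative settings. Low-dose RE replicate 2, where Mgst1 was at 7.96, had the lowest mean of the astrocyte markers, with Slc4a4 low and Slc1a2 not. The part of that in the value was not tested.

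Ephx1, the microsomal epoxide hydrolase, was at 9.21 and 8.63 with low-dose RE, against 9.57 and 9.68 in water with TST, and fell by 0.705 (SE 0.300). It was at 9.25 and 8.92 with high-dose RE and at 9.65 and 9.09 in water without TST. The low-dose call was lost without low-dose RE replicate 2 (-0.415), either water with TST array or either high-dose array, by the methods' analysis of variance, when only the groups compared were fitted, and without the 2 arrays highest in cerebellar markers (-0.65). All 6 TST arrays of Abcc4, an export pump for organic anions, lay above both arrays of water without TST. Abcc4 was at 8.46 and 8.67 with water, at 8.65 and 8.57 with low-dose RE and at 8.52 and 8.56 with high-dose RE, all with TST, against 7.96 and 8.07 in water without TST. The rise with TST in water-treated mice was 0.55 (SE 0.218), lost without either array of water without TST, without water with TST replicate 2, without either high-dose array, when only the groups compared were fitted, and without the 2 arrays highest in cerebellar markers (0.39).

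**Figure D4:**
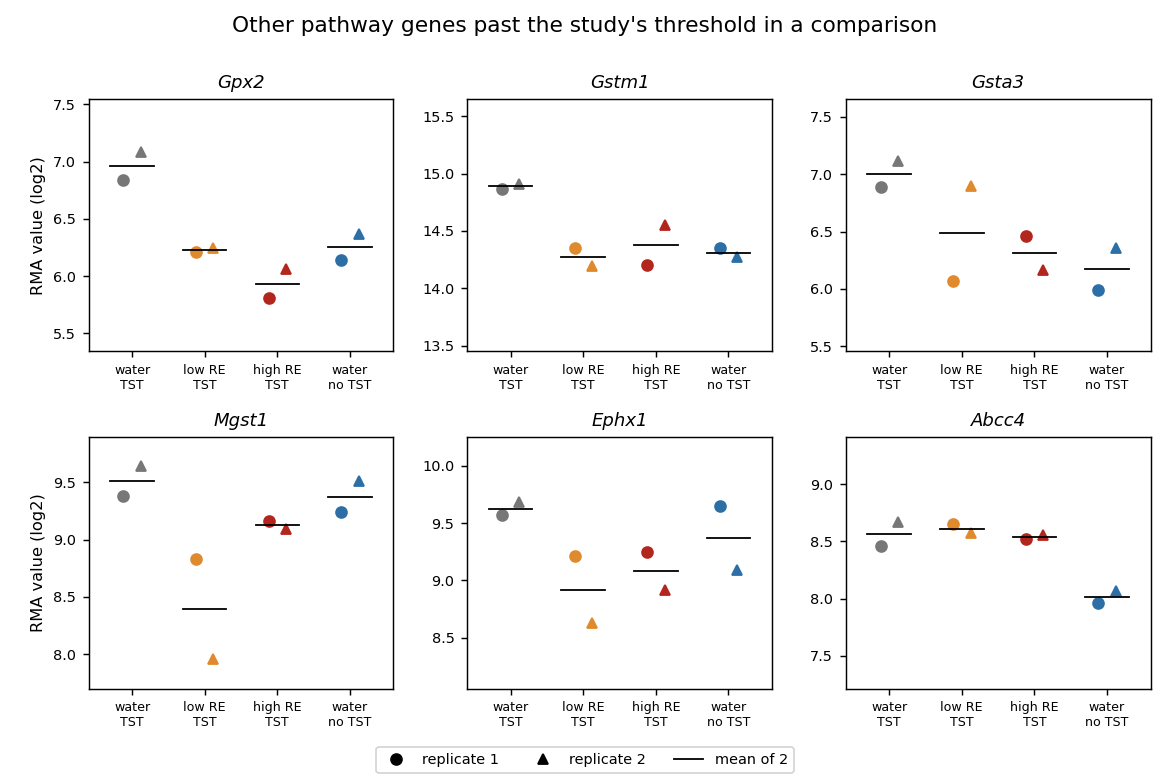
Log2 RMA value of the 6 other pathway genes past the study's threshold in at least 1 comparison, by group and replicate, with the mean of 2 as a line. Gpx2 and Gstm1 are highest on both arrays of water with TST (6.84 and 7.08, 14.87 and 14.91), and Abcc4 is lowest on both arrays of water without TST (7.96 and 8.07).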

How the data were processed

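Per the series' design text and the submitters' processing notes, the authors made the log2 values with Transcriptome Analysis Console (version 4.0.1), which applied robust multichip averaging (RMA) to the Clariom S scans. They were used as deposited. Scanner files, detection calls and the genome build of the array were not used here. The 8 arrays (2 per group) were grouped by title. All 22206 rows were fitted in limma 3.58.1 (R 4.3.3) with 4 group means, 4 residual degrees of freedom and empirical Bayes moderation (prior degrees of freedom 4.3), and p-values were adjusted by Benjamini-Hochberg across the whole array. The threshold of the study, per its design text, is a fold over 1.2 (0.263 on the log2 scale) and an unadjusted p under 0.05. The platform annotation named 19572 rows with 1 symbol and left 2634 unnamed here. The fit was tested on simulated data with equal spread in every row and large shifts, which does not cover arrays as uneven as these. With no counts, precision is limited by the number of arrays, and intervals are 95% limma intervals.

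The 10 genes and all lists were chosen with earlier results of these data known. All 10 are named, and of the other pathway genes up to 4 per comparison that passed the study's threshold, by size of difference. Alternatives were a replicate block, fitting the compared groups alone, trend and robust priors, no dimmest 25% of rows, quantile normalization, the methods' analysis of variance and each array left out; leaving out both arrays high in cerebellar markers, and all alternatives for the other pathway genes, were chosen after seeing the data. Of the 11 marker lists, 6 are given here alone, with mean deviations over the 8 arrays of -0.307 to 0.358 for oligodendrocytes, -0.807 to 0.433 for microglia, -0.176 to 0.219 for border macrophages, -0.15 to 0.169 for endothelium, -0.508 to 0.315 for blood (3 of 6 measured) and -0.995 to 0.411 for hippocampal neurons.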

Additional observations from a re-analysis of the deposited data

How the results depend on the processing

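With the replicate block 0 of the 10 genes passed the study's threshold in each comparison. The replicate differences of the groups correlated at -0.293 to 0.169 over all rows. Tissue content also enters these differences, so they cannot tell whether equal numbers mark a shared batch. The block ended the Gstm1 call for TST and the Mgst1 call for high against low dose. High-dose RE against water gave 1 gene (Txnrd1) after quantile normalization, against 828 of all 22206 rows. It gave 1 by the methods' analysis of variance, against 649 rows. Leaving out 1 array, with a lone array assumed to vary like the other groups, gave 0 to 1 genes past the threshold for TST, 0 to 3 for the low dose, 0 to 1 for the high dose and 0 to 3 for high against low dose. None passed an adjusted p of 0.05 under any of these settings, though without water with TST replicate 1 limma called 512 rows of the array for TST, 958 for the low dose and 928 for the high dose. In each comparison, the number of all rows past the study's threshold also varied widely with the array left out. Whether the member counts went beyond that variation was not tested. Of the 40 differences, none of which passed the threshold with all arrays, 24 changed sign somewhere, and the cause was not tested. Without both arrays high in cerebellar markers the turned values were -0.02 (Gclm) and 0.34 (Slc7a11) for TST, 0.115 (Gsr) and -0.04 (Slc7a11) for the low dose, and -0.18 (Keap1), 0.065 (Hmox1) and 0.04 (Gclm) for the high dose. With 1 array left out, the ranges of those that turned for TST were -0.16 to 0.25 (Keap1), -0.33 to 0.12 (Hmox1), -0.14 to 1.05 (Gclm), -0.305 to 0.175 (Gsr) and -0.355 to 0.285 (Slc7a11). For the low dose they were -0.355 to 0.815 (Nfe2l2), -0.425 to 0.345 (Keap1), -0.095 to 0.355 (Hmox1), -0.175 to 0.035 (Gclc), -0.54 to 0.29 (Gsr), -0.075 to 0.105 (Slc7a11), -0.1 to 0.31 (Txnrd1) and -0.895 to 0.105 (Srxn1). For the high dose they were -0.18 to 0.23 (Keap1), -0.385 to 0.065 (Hmox1), -0.015 to 0.195 (Gclc), -1.15 to 0.04 (Gclm) and -0.325 to 0.065 (Srxn1). For high against low dose they were -0.68 to 0.49 (Nfe2l2), -0.32 to 0.45 (Keap1), -0.495 to 0.865 (Nqo1), -0.115 to 0.245 (Gclm), -0.005 to 0.825 (Gsr) and -0.235 to 0.765 (Srxn1). Nfe2l2 lies among the dimmest 25% of rows, where the signal limits what a difference can show.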
